A study of Mus musculus with 90 samples.

Results

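The 6 genes of steroid hormone signalling followed here were the corticoid receptors Nr3c1 (ENSMUSG00000024431) and Nr3c2 (ENSMUSG00000031618), the estrogen receptors Esr1 (ENSMUSG00000019768) and Esr2 (ENSMUSG00000021055), the progesterone receptor Pgr (ENSMUSG00000031870) and aromatase, Cyp19a1 (ENSMUSG00000032274). They were taken by name, as the 6 of 37991 gene identifiers in the count table that map to these symbols, with earlier results of these data known. The study measured mRNA in the amygdala, frontal cortex and hypothalamus of territory-holding male C57BL/6J mice. Each resident had lived with a C57BL/6J female, which was taken out of the cage before the test. For 5 min it then met either an unfamiliar BALB/cJ male held in a wire mesh cage (intruder) or the same cage with a paper cup inside (control). Tissue was dissected 30, 60 or 120 min later, which gives 18 groups of region, time and condition and 90 libraries. Each group had 5 libraries, except for 3 in the hypothalamus of 30 min controls and 6 in the frontal cortex at 120 min under either condition. All residents were C57BL/6J males of the same housing history as far as the labels say, so sex and hormone treatment are not contrasts of this design, and no age is given here. The labels name the animal behind each library: 32 animals gave libraries, 28 of them from all 3 regions. The design text also speaks of pooling RNA to make libraries, so how many animals stand behind a library is taken from its label alone.

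Steroid receptors are transcription factors held by chaperones until a hormone binds, after which they act on DNA as dimers. Nr3c1 encodes the glucocorticoid receptor, which answers high corticosterone such as that of stress, and Nr3c2 the mineralocorticoid receptor, which binds corticosterone more tightly and is abundant in limbic brain. Esr1 and Esr2 encode estrogen receptors alpha and beta, Pgr is a classic target of the former, and aromatase makes estradiol from testosterone within the male brain. In rodents the estrogen receptors and aromatase are found mainly in hypothalamic nuclei, the medial amygdala and the bed nucleus of the stria terminalis, which serve mating, territorial and aggressive behavior.

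The stretches of genome ahead of Esr1, Esr2 and Cyp19a1 are printed first, because the levels of these genes moved together from animal to animal in the amygdala. The sequences are 250 bases directly upstream of a RefSeq start site in assembly GRCm38.p6, read 5′ to 3′ on the gene's strand. Lower case is plain sequence, and capitals mark a match to one of 4 motifs searched on both strands. The Esr1 window lies at chr10:4611739-4611988 on the plus strand, the Esr2 window at chr12:76177260-76177509 on the minus strand, and the Cyp19a1 windows at chr9:54268165-54268414 and chr9:54228915-54229164 on the minus strand.
Esr1: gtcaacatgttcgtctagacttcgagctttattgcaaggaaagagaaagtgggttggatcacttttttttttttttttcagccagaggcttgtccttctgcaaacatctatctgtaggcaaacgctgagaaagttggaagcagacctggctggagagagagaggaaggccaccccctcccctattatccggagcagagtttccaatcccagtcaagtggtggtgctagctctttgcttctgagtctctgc
Esr2: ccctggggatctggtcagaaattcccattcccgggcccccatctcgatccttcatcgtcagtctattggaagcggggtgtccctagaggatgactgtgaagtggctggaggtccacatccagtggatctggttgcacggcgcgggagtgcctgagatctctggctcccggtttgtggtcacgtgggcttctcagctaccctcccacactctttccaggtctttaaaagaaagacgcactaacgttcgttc
Cyp19a1, first window: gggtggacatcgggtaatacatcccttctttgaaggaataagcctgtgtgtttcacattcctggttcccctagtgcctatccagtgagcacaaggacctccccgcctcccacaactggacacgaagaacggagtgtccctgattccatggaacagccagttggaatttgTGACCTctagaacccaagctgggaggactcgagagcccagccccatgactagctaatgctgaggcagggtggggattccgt
Cyp19a1, second window: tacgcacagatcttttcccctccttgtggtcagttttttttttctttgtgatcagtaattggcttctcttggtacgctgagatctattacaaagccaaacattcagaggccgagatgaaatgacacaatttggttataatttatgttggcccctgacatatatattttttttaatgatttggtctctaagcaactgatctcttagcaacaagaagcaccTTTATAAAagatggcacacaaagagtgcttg

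RefSeq windows were examined for 5 of the members, 8 windows in all, and Nr3c1 was left out of this search. The full estrogen response element GGTCANNNTGACC and the element bound by corticoid and progesterone receptors, GAACANNNTGTTC, had no match in those 8 windows, and are rare anywhere: 0.0639% and 0.0396% of 32851 promoter windows of this length hold them. The half-site AGGTCA, whose last 5 letters open the full estrogen element, occurs in 14% of all windows and matched once, in the first Cyp19a1 window, 81 bases from the start on the opposite strand (written as -81 in gene coordinates). The TATA box TATAAA, present in 12.4% of all windows, matched at -31 and -29 in the second Cyp19a1 window, at -157 and -143 in another Cyp19a1 window and once in that of Pgr, at -212. CpG pairs were most frequent in the windows of Nr3c2, with 17, and Esr2, with 12, against a median of 6 over all windows. The 3 windows of Cyp19a1 held 6, 3 and 2, that of Pgr 4 and the 2 of Esr1 4 and 7. A letter match describes the sequence and does not show a bound site, and its absence says nothing about sites elsewhere.

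The libraries held between 38601039 and 58858458 reads counted in genes. Values below are CPM, read counts scaled by library size after the TMM scaling of edgeR, which corrects for differences in RNA composition between libraries. Marker genes set the 3 regions apart: the summed level of 10 hypothalamic markers, among them Avp, Oxt and Pmch, was 695 to 1860 CPM in hypothalamus, 9.8 to 88.2 in amygdala and 1.31 to 29.6 in frontal cortex. Cortical markers such as Slc17a7 summed to 1520 to 2230 CPM in frontal cortex and to 361 to 1370 in amygdala. The 6 amygdala markers set that region apart less: their sum was 95.2 to 268 CPM in amygdala, 86.7 to 142 in hypothalamus and 39.8 to 56.5 in frontal cortex. Among them, Rspo1 and Tac2 were higher in hypothalamus (medians of 15.7 and 21.2 CPM) than in amygdala (5.72 and 10.8), and Nr2f2 was the largest part of the sum, with a median of 114 CPM in amygdala. Amygdala dissections varied widely in some tissue markers: striatal markers (Drd1, Drd2, Adora2a and 3 others) ran from 194 to 2040 CPM and oligodendrocyte markers from 1750 to 6210. In frontal cortex these lists ran from 181 to 1170 and from 2210 to 6380 CPM, and in hypothalamus from 91.3 to 184 and from 4550 to 7750. In dissected tissue, fewer cells of a type and less RNA per cell cannot be told apart. The column names of the count table also carry a tag that no label explains: ISO in all 28 libraries of 30 min, CERV in all 30 of 60 min and all 32 of 120 min, so that this tag and the step from 30 min to later times cannot be told apart.

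**Figure D1:**
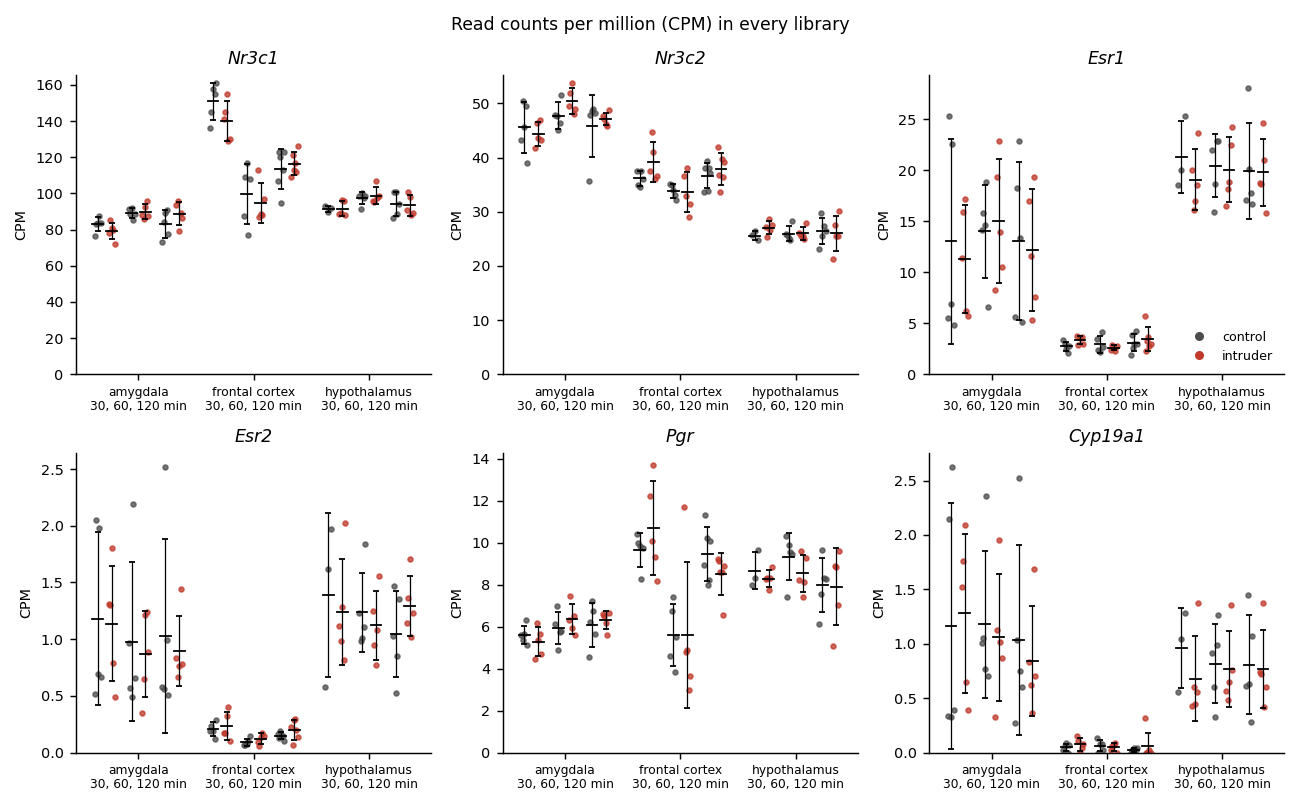
Each point is 1 library, in CPM on the y axis (starting at 0), by region and time on the x axis, with controls in grey and intruder-exposed residents in red; black lines give the group mean and SD. Esr1, Esr2 and Cyp19a1 stand low in frontal cortex and spread widely in amygdala, Nr3c1 is high at 30 min in frontal cortex, Pgr is low there at 60 min, and in no panel do the red and grey points part.

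Nr3c1, the glucocorticoid receptor, was detected at a high level in all 3 regions. It measured 119 ± 22.5 CPM in frontal cortex (SD, n = 32), 94.7 ± 5.17 in hypothalamus (n = 28) and 85.5 ± 6.21 in amygdala (n = 30). Frontal cortex had the widest spread, from 77.2 to 161 CPM, and 75.4% of its variance on the log2 scale lay between the 6 groups of time and condition. In amygdala the libraries ran from 72.3 to 95.7 CPM and in hypothalamus from 86.3 to 107. The region means were ordered frontal cortex, hypothalamus, amygdala, and the ranges of the 3 regions overlapped. At 60 min the frontal cortex means, 99.8 CPM in controls and 94.7 in intruder-exposed residents, were near those of hypothalamus, 97.4 and 98.7.

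Nr3c2, the mineralocorticoid receptor, had another order of regions. Its level was 46.8 ± 3.73 CPM in amygdala (SD, n = 30), 36.3 ± 3.21 in frontal cortex (n = 32) and 26.2 ± 1.83 in hypothalamus (n = 28). The lowest amygdala library, at 35.6 CPM, lay above the highest hypothalamus library, at 30.1. Within the animals with both tissues, amygdala exceeded frontal cortex in 30 of 30 and frontal cortex exceeded hypothalamus in 28 of 28. The ratio of Nr3c2 to Nr3c1 reads, which is not corrected for transcript length and so is compared only between libraries, stood at 0.549 ± 0.039 for amygdala (SD, n = 30), 0.314 ± 0.052 for frontal cortex (n = 32) and 0.277 ± 0.023 for hypothalamus (n = 28).

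Esr1 was highest in hypothalamus, at 20 ± 3.24 CPM (SD, n = 28, range 15.8 to 28.1), and lowest in frontal cortex, at 3.04 ± 0.77 (n = 32, range 1.89 to 5.71). Amygdala stood between them at 13.1 ± 6.38 CPM (n = 30), but its libraries ran from 4.82 to 25.3, from near the cortical level to the hypothalamic one. The 5 amygdala controls of 30 min show this: they measured 5.47, 25.3, 6.94, 22.6 and 4.82 CPM. Intruder-exposed residents of 30 min measured 11.4, 15.9, 17.2, 6.19 and 5.75 CPM. The control values thus fell into 2 high and 3 low libraries, and the intruder values lay inside their range. At 60 min the amygdala controls had 14.2, 15.8, 14.6, 18.9 and 6.56 CPM of Esr1 and the intruder libraries 8.25, 19.4, 22.9, 14 and 10.5. At 120 min the controls had 5.57, 18.3, 22.9, 13.4 and 5.17 CPM and the intruder libraries 17, 11.6, 5.31, 19.4 and 7.6. At each time the 2 conditions overlapped over most of their range, and 5.53% of the variance of amygdala Esr1 lay between the 6 groups, the other 94.5% between animals of 1 group.

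Esr2 was a rare transcript with the same low level in frontal cortex. It measured 1.21 ± 0.383 CPM in hypothalamus (SD, n = 28), 1.01 ± 0.576 in amygdala (n = 30) and 0.167 ± 0.0824 in frontal cortex (n = 32). Frontal cortex libraries held 3 to 20 reads of it, so that counting error is large there; amygdala libraries held 16 to 117 and hypothalamus libraries 30 to 114. The lowest hypothalamus library, at 0.528 CPM, lay above the highest frontal cortex library, at 0.405. Amygdala values ran from 0.35 to 2.52 CPM, with 3.81% of their variance between the 6 groups.

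Averaged over times and conditions, Pgr, the progesterone receptor, was the member whose level differed least between frontal cortex and hypothalamus. It measured 8.43 ± 1.17 CPM in hypothalamus (SD, n = 28), 8.3 ± 2.61 in frontal cortex (n = 32) and 5.92 ± 0.756 in amygdala (n = 30). In frontal cortex it ran from 3 to 13.7 CPM, and 59.5% of this variance lay between the 6 groups, whereas in amygdala it stayed within 4.47 to 7.46. At 60 min the frontal cortex means, 5.62 in controls and 5.6 in intruder-exposed residents, lay below those of hypothalamus, 9.33 and 8.53. At 30 min they lay above, at 9.65 and 10.7 against 8.66 and 8.29, and at 120 min above as well, at 9.45 and 8.5 against 7.99 and 7.89.

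Cyp19a1, which encodes aromatase, was read 14 to 130 times per library in amygdala and 14 to 76 times in hypothalamus. These reads amount to 1.09 ± 0.722 CPM in amygdala (SD, n = 30, range 0.271 to 2.62) and 0.789 ± 0.355 in hypothalamus (n = 28, range 0.278 to 1.45). In frontal cortex it was at the edge of detection: 10 of 32 libraries had 0 reads, the median was 1 read and the highest count was 18. A count of 0 allows up to 3 reads, 0.056 to 0.0777 CPM at these depths, counting error alone. As for Esr1, between-group variance in amygdala was small, 4.9% of the total.

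Ordering the 18 groups by mean level gave few steps larger than the spread of libraries. Of the 17 pairs of neighbours in that order, the ranges of 16 overlapped for Nr3c1, Nr3c2, Esr1 and Cyp19a1, and those of all 17 for Esr2 and Pgr. The step without overlap parted, for Nr3c1, the 30 min groups of frontal cortex from all others; for Nr3c2, Esr1 and Cyp19a1 the step lay between the lowest group of one region and the highest of the next.

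The difference between regions was tested over all 90 libraries with edgeR's quasi-likelihood test, comparing the mean of the 6 groups of each region, with p-values adjusted by Benjamini and Hochberg over all 18337 genes tested. Most genes differ between these tissues, so a call by itself sets no member apart: 87.4% of genes were called between hypothalamus and frontal cortex, 76.7% between amygdala and frontal cortex and 80.1% between hypothalamus and amygdala. Of the 6 members, 5, 6 and 4 were called in these comparisons. Sizes are what distinguish them, and they are given as log2 fold change ± SE from the fit.

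Between hypothalamus and frontal cortex, the estrogen receptors and aromatase differed most. Esr1 was higher in hypothalamus by 2.74 ± 0.143, or 6.66-fold (adjusted p = 3.49e-30). Esr2 was higher by 2.92 ± 0.185, or 7.55-fold (adjusted p = 4.09e-25). The fitted difference of Cyp19a1 was 3.93 ± 0.317 (adjusted p = 1.65e-19), which rests on a median of 1 read in the frontal cortex libraries and was 4.56 without the libraries numbered 1. Each of the 3 was higher in hypothalamus in 28 of 28 animals. The corticoid receptors went the other way: Nr3c1 was at 0.804 of its cortical level (log2 -0.32 ± 0.029, adjusted p = 6.58e-17) and Nr3c2 at 0.724 (log2 -0.47 ± 0.029, adjusted p = 9.22e-26), lower in hypothalamus in 22 and 28 of 28 animals. Pgr did not pass the test (log2 0.08, 95% interval -0.06 to 0.22, adjusted p = 0.286), though without the libraries numbered 1 it was called at 0.19. This is an average over times at which the group means of the regions differed in opposite directions.

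Between amygdala and frontal cortex, Esr1 was higher in amygdala by 2.11 ± 0.14 (4.32-fold, adjusted p = 1.41e-23) and Esr2 by 2.65 ± 0.186 (6.26-fold, adjusted p = 2.87e-22). Cyp19a1 was higher by 4.37 ± 0.306 (adjusted p = 2.62e-22), again against few cortical reads, and by 5.09 without the libraries numbered 1. All 30 animals with both tissues had more of each of the 3 in amygdala. Nr3c2 was higher in amygdala by 0.37 ± 0.028 (adjusted p = 7.03e-21), while Nr3c1 was lower by 0.46 on the log2 scale (fitted value -0.46 ± 0.028, adjusted p = 1.2e-25) in 26 of 30 animals. Pgr was lower in amygdala at -0.43 ± 0.07 (adjusted p = 6.03e-08), in 22 of 30 animals.

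Hypothalamus and amygdala differed most in Nr3c2, which was at 0.559 of its amygdala level in hypothalamus (log2 -0.84 ± 0.029, adjusted p = 9.47e-41). Pgr was higher in hypothalamus by 0.51 ± 0.072 (adjusted p = 1.16e-09, 27 of 28 animals) and Esr1 by 0.62 ± 0.133 (adjusted p = 1.87e-05, 24 of 28 animals). Nr3c1 was higher by 0.15 ± 0.029 (adjusted p = 6.77e-06, 25 of 28 animals). The other 2 missed the threshold: Esr2 at 0.27 (95% interval -0.03 to 0.57, adjusted p = 0.0939) and Cyp19a1 at -0.45 (95% interval -0.87 to -0.02, adjusted p = 0.0512). Esr2 was called, at 0.34, when the animal was kept as a block, at 0.32 with upper-quartile scaling and at 0.42 without the libraries numbered 3. Cyp19a1 was called without those numbered 1 (-0.53) or 6 (-0.54).

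**Figure D2:**
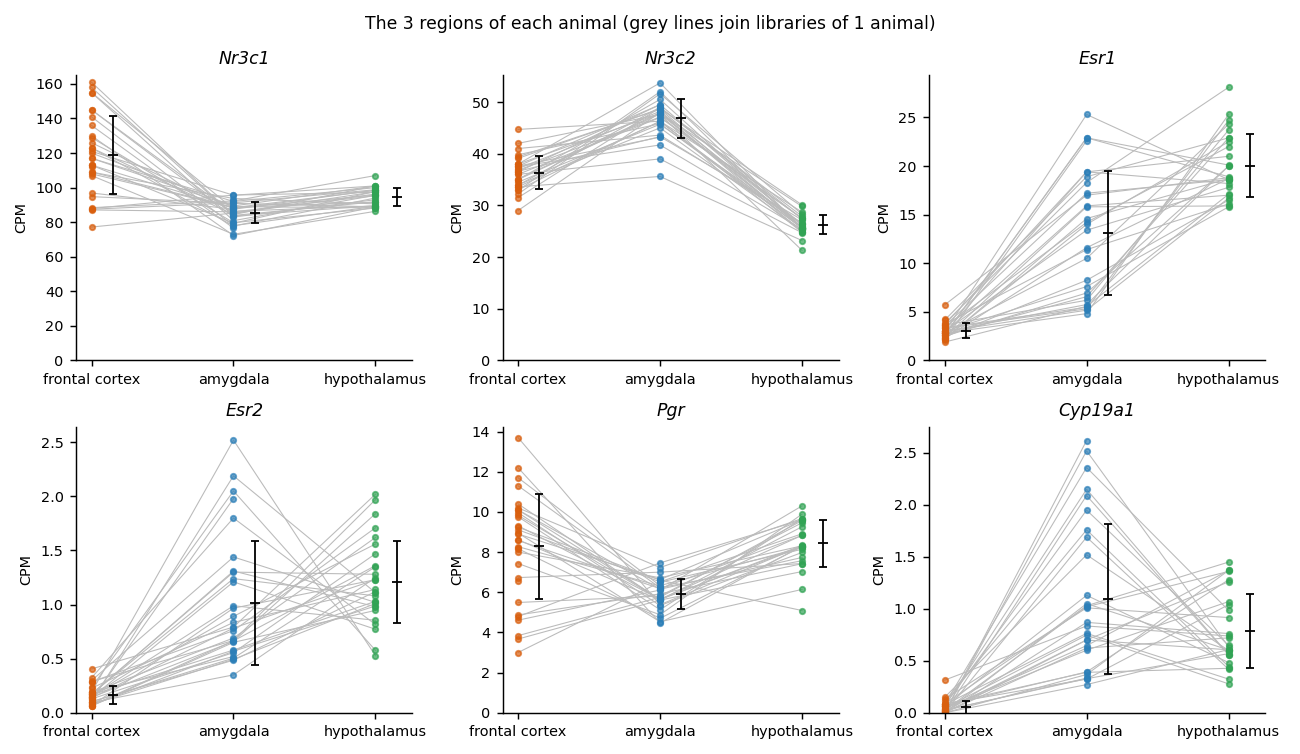
Each panel gives 1 gene in CPM on the y axis (starting at 0), with frontal cortex, amygdala and hypothalamus on the x axis; points are libraries, grey lines join the libraries of 1 animal, and the black mark is the mean and SD over libraries. For Esr1, Esr2 and Cyp19a1 every line rises from frontal cortex to amygdala, and for Nr3c2 every line between amygdala and hypothalamus falls.

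The main question of the design was whether meeting an intruder changes transcript levels. None of the 6 members differed between intruder-exposed and control residents at any time in any region (edgeR quasi-likelihood test, 0 of 6 called in amygdala and hypothalamus and 0 of the 5 tested in frontal cortex, where Cyp19a1 fell under the filter on low counts). No member reached an unadjusted p of 0.05 in these 9 comparisons, and DESeq2 likewise called 0. The background was low as well. Over all genes, the amygdala comparison called 0% at the earlier times and 0.538% (93 of 17277) at 120 min. In frontal cortex 0% of 17091 genes passed at each time. The hypothalamus called 0% at the earlier times and 0.192% (34 of 17676) at 120 min. The intervals, rather than the calls, say how large a change could have gone unseen.

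For the corticoid receptors those intervals were narrow. The smallest unadjusted p of any member at a single time belonged to Nr3c1 in amygdala at 120 min. There the intruder libraries measured 93.7, 95.6, 79.4, 89 and 86.3 CPM and the controls 73, 84.4, 89.4, 90.9 and 77.8. The groups overlapped, and the log2 fold change was 0.1 ± 0.056 (95% interval -0.02 to 0.21, edgeR adjusted p = 0.404). In frontal cortex at 30 min Nr3c1 was at -0.11 (95% interval -0.3 to 0.07), and in hypothalamus its 3 estimates were 0, 0.02 and -0.02 with no bound beyond 0.12 in size. Nr3c2 ranged from -0.04 to 0.11 over the 9 comparisons, its largest value being that of frontal cortex at 30 min (95% interval -0.03 to 0.26, adjusted p = 0.791).

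The ratio of Nr3c2 to Nr3c1 was also compared, a measure added after the data were seen. In frontal cortex at 30 min it was 0.28 ± 0.017 in intruder-exposed residents and 0.24 ± 0.023 in controls (SD, n = 5 each), a log2 difference of 0.22 (exact permutation test, two-sided, p = 0.0238, adjusted p = 0.214 over 9 comparisons). This did not hold after adjustment, and the other 8 differences lay between -0.05 and 0.08 with exact permutation p of 0.179 or more.

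For Esr1 the precision depended on the region. In hypothalamus its log2 fold changes were -0.16 (95% interval -0.51 to 0.19) at 30 min, -0.02 (-0.33 to 0.28) at 60 min and -0.01 (-0.32 to 0.29) at 120 min. In amygdala the spread between animals widened the interval to -1.21 to 0.79 at 30 min, around an estimate of -0.21. The amygdala estimates at 60 and 120 min were 0.1 and -0.09, with intervals nearly as wide. Changes within those intervals were not detectable in amygdala at this spread.

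Esr2 in frontal cortex was estimated above the controls at each time, at 0.21, 0.4 and 0.46 on the log2 scale, and at 0.36 on average (95% interval -0.07 to 0.79, edgeR adjusted p = 0.997), on counts of 3 to 20 reads. In hypothalamus at 120 min it was at 0.31 (95% interval -0.31 to 0.92) and in amygdala between -0.19 and -0.06. Neither direction was called.

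Pgr differed by -0.15 to 0.15 over the 9 comparisons. Its interval was tightest in amygdala (at 60 min, -0.12 to 0.33) and widest in frontal cortex at 60 min (-0.48 to 0.47). At that time the intruder libraries of frontal cortex measured 11.7, 4.79, 4.87, 3 and 3.67 CPM and the controls 4.61, 6.73, 7.43, 3.84 and 5.49. Replicate 1 of the intruder group was thus above every control and the other 4 libraries within or below the control range.

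Cyp19a1 had the least certain estimates. In amygdala at 30 min the controls measured 0.333, 2.15, 0.324, 2.62 and 0.393 CPM and the intruder libraries 1.52, 1.76, 2.09, 0.646 and 0.389. The log2 fold change was 0.13, with a 95% interval of -1.11 to 1.37. The estimate furthest from 0 in this gene was that of hypothalamus at 30 min, where 5 intruder libraries measured 0.428, 0.599, 0.445, 0.556 and 1.37 CPM and 3 controls 0.558, 1.04 and 1.28. It was -0.5 (95% interval -1.47 to 0.46, adjusted p = 1), and the groups overlapped.

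Averaging the 3 times, or testing whether the intruder effect differed between times or regions, gave no call either (edgeR, 0 members, each with unadjusted p above 0.05 and 0 by DESeq2). The background of the average was 0% in each region. That of the interaction with time was 0% in amygdala and frontal cortex and 0.0113% in hypothalamus, and that of the interaction with region 0% at each of the 3 times. The averaged intervals bound the change of Nr3c1 to -0.05 to 0.08 in amygdala and -0.05 to 0.06 in hypothalamus, and that of hypothalamic Esr1 to -0.25 to 0.12.

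**Figure D3:**
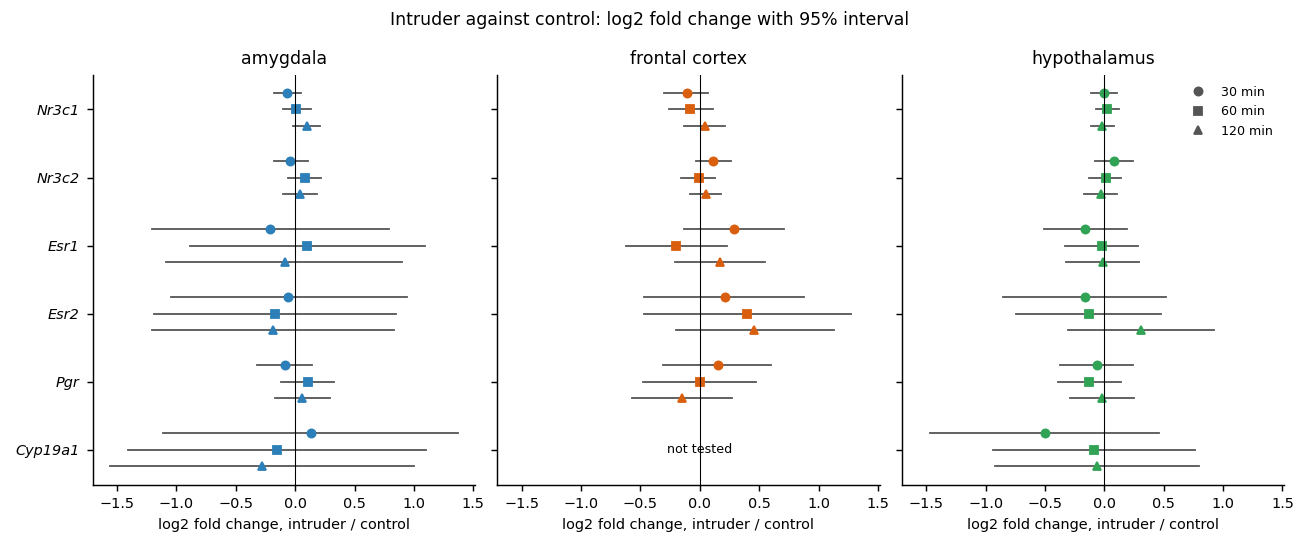
The x axis is the log2 fold change of intruder over control, with 0 marked; points are estimates at 30 min (circles), 60 min (squares) and 120 min (triangles) and bars are 95% intervals, for the 6 genes on the y axis in each region. Every interval crosses 0, those of Nr3c1 and Nr3c2 are short, and those of Esr1, Esr2 and Cyp19a1 in amygdala are several times as long.

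Time after the test was a second axis. Members were called between times mainly in frontal cortex, where a large share of all genes was called as well. The step from 30 min to later times cannot be told apart from the ISO and CERV tags. The overall test over the 3 times called 33.4% of genes in controls and 46.1% in intruder-exposed residents there. Among them were 2 members in controls (Nr3c1 and Pgr) and 3 in intruder-exposed residents (Nr3c1, Nr3c2 and Pgr), with Cyp19a1 not tested. Beside such shares a call by itself sets no member apart. Nr3c1 in frontal cortex controls measured 136, 145, 158, 155 and 161 CPM at 30 min and 87.5, 109, 117, 77.2 and 108 at 60 min. At 120 min the 6 control libraries ran from 94.8 to 123 CPM with a median of 117. The 30 min and 60 min libraries did not overlap. The drop by 60 min was -0.61 ± 0.091 on the log2 scale (0.657-fold, adjusted p = 2.58e-05), in a comparison where 35.4% of genes were called, and the 120 min level was still -0.42 ± 0.086 (adjusted p = 0.00568, 4.42% of genes called).

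In intruder-exposed residents Nr3c1 of frontal cortex fell from 30 to 60 min as well. The libraries measured 141, 145, 155, 129 and 130 CPM at 30 min and 113, 87.1, 88.4, 87.9 and 96.9 at 60 min, again without overlap, and 109 to 126 CPM at 120 min. The change by 60 min was -0.57 ± 0.091 (adjusted p = 1.09e-05, 45.5% of genes called). By 120 min it was -0.27 ± 0.086 (adjusted p = 0.0322, 17.7% of genes called), a call lost without any one of 6 libraries (intruder replicates 1, 2 and 3 of 30 min and 1, 3 and 5 of 120 min, with estimates of -0.23 to -0.26) and with the marker covariates described below (-0.37, adjusted p = 0.0657). From 60 to 120 min it rose by 0.31 ± 0.087 (adjusted p = 0.0135, 22.9% of genes called), which was not called without intruder replicate 4 of 60 min (0.28) or with the library index as a block (0.48, adjusted p = 0.0653). In controls that step was not called, at 0.19 ± 0.087 (95% interval 0.01 to 0.37, adjusted p = 0.135). The test of the intruder effect between times did not call Nr3c1 (adjusted p = 0.971).

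Pgr followed in frontal cortex. Controls measured 10.4, 9.96, 9.83, 8.27 and 9.76 CPM at 30 min and 4.61, 6.73, 7.43, 3.84 and 5.49 at 60 min, and 8 to 11.3 CPM at 120 min. The 60 min libraries all lay under those of the other times. The change was -0.79 ± 0.228 from 30 to 60 min (adjusted p = 0.00771) and 0.76 ± 0.22 from 60 to 120 min (adjusted p = 0.0218, 15.9% of genes called). The rise was not called without control replicate 1 or 5 of 60 min or replicate 2 of 120 min (0.69, 0.64 and 0.69). In intruder-exposed residents Pgr fell by 0.94 on the log2 scale from 30 to 60 min (fitted value -0.94 ± 0.228, adjusted p = 0.00118). It rose by 0.61 ± 0.22 to 120 min (adjusted p = 0.044), a call that 9 of 11 libraries could each end when left out, with estimates of 0.45 to 0.61, and that was lost with the library index as a block (1.04, adjusted p = 0.106). Without intruder replicate 1 of 60 min, the library at 11.7 CPM, the fall was -1.4 and the rise 1.07.

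Among the rarer members, Esr2 fell in frontal cortex from 30 to 60 min by 1.12 in controls (fitted value -1.12 ± 0.387, adjusted p = 0.0241) and by 0.93 in intruder-exposed residents (-0.93 ± 0.359, adjusted p = 0.0352). The control libraries had 0.121 to 0.288 CPM at 30 min and 0.0649 to 0.142 at 60 min, which overlap and rest on 3 to 20 reads. Leaving out control replicate 2 or 5 of 30 min or 1 or 2 of 60 min ended the first call (-0.96 to -1.06), and leaving out intruder replicate 3 or 4 of 30 min or 1 or 2 of 60 min the second (-0.63 to -0.86). The second call was also lost with DESeq2 (-0.94) and without a filter on low counts (-0.92). Nr3c2 was called over time in intruder-exposed residents: it fell by 0.23 to 60 min (-0.23 ± 0.069, adjusted p = 0.00742) and rose by 0.18 ± 0.066 to 120 min (adjusted p = 0.0452, lost without any one of 6 libraries at 0.13 to 0.17, and at 0.16 to 0.28 with upper-quartile scaling, without a filter on low counts or with the library index as a block). In controls its change to 60 min was -0.1 (95% interval -0.24 to 0.04); whether the conditions differ in this was covered by the test of the intruder effect between times, which did not call Nr3c2 (adjusted p = 0.971). Esr1 passed in no time comparison of frontal cortex.

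Tissue markers of the frontal cortex libraries also differed between times. The 5 oligodendrocyte markers (Mbp, Mog and Mobp among them) had a summed median of 2920 CPM in controls and 2880 in intruder-exposed residents at 30 min. By 60 min the medians were 5370 and 4490, and the libraries of 120 min had 4200 and 4400. The ranges at 30 min were 2810 to 3590 in controls and 2210 to 3690 in intruder-exposed residents, under all of the 60 min libraries (4090 to 6380 and 3930 to 5840). The reads in no feature, as a percentage of all counts with the rows that name no gene included, also parted these times. They were 10.99% to 12.7% in controls and 11.4% to 13.19% in intruder-exposed residents at 30 min. The 60 min libraries had 8.99% to 9.71% and 8.63% to 10.29%, without overlap, and those of 120 min 9.46% to 11.3% and 9.71% to 10.7%. Other markers parted single pairs of times: the endothelial sum was 140 to 160 CPM in controls at 30 min and 117 to 139 at 120 min. The thalamic sum of intruder-exposed residents was 64.6 to 76.1 CPM at 30 min and 51.9 to 63.5 at 60 min, and at 120 min, where Nr3c1, Nr3c2 and Pgr were called higher than at 60 min, it was 63.7 to 162. Neither list is among the covariates used next. With summed amygdala, striatum and oligodendrocyte markers as covariates, an alternative added after the data were seen, Nr3c1 remained called from 30 to 60 min in both conditions (adjusted p = 0.00115 in controls and 0.000167 in intruder-exposed residents). Its call at 120 against 30 min was kept in controls (adjusted p = 0.00881) and lost in intruder-exposed residents. Under those covariates the Pgr call was lost in controls at nearly the same size (-0.8, adjusted p = 0.0699) and kept in intruder-exposed residents (adjusted p = 0.00573), and both Esr2 calls were lost (-0.55 and -0.22). The part of the markers, that of the reads in no feature and that of the ISO and CERV tags, in these changes was not tested further. Neither the tag nor the library index can be told apart from the step from 30 min here.

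In the other regions few members were called between times. In amygdala of intruder-exposed residents 1 of 6 members passed the overall test (12.9% of genes called) and 0 of 6 the step from 60 to 120 min (0.0695%). Nr3c1 was called higher at 60 min (0.18 ± 0.056, adjusted p = 0.0422, 7.41% of genes called) and at 120 min (0.17 ± 0.056, adjusted p = 0.0441, 15% of genes called) than at 30 min. Leaving out most single libraries ended these calls: 1 of 10 and 2 of 10 such fits kept them, with estimates of 0.14 to 0.2 and 0.12 to 0.19, and the lowest came without intruder replicate 5 of 30 min. Both calls were also lost in 4 of 6 other settings, which were RLE scaling, upper-quartile scaling, no filter on low counts and the library index as a block. With that block the estimates were 0.1 and 0.14 (adjusted p = 0.914 and 0.855). Other measures parted these times: the hypothalamic marker sum of these libraries was 28.7 to 58.7 CPM at 30 min and 14.1 to 22.6 at 60 min. The endothelial sum was 109 to 145 CPM at 30 min and 66.3 to 104 at 120 min. The reads in no feature were 10.77% to 11.95% of all counts at 30 min and 12.3% to 13.5% at 120 min. Their part in the calls was not tested. In amygdala controls 0 of 6 members were called over time (0.232% of genes called; 0.133%, 0.145% and 0.0232% in the steps of 60 against 30, 120 against 30 and 120 against 60 min) and in hypothalamus 0 of 6 in controls (0.181%, with 0.017%, 0.175% and 0.0396% in the same steps) and in intruder-exposed residents (1.49%, with 0.0792%, 1.93% and 0.441%). With edgeR the unadjusted p of the test over all times was above 0.05 for every member in these 3 tests, and DESeq2 called 0.

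**Figure D4:**
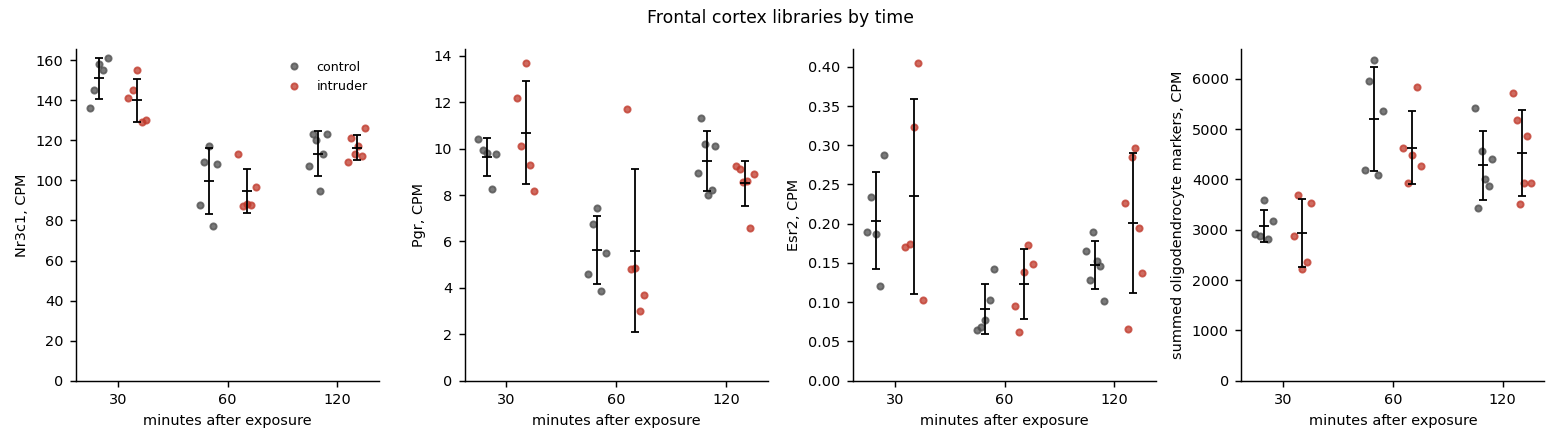
Frontal cortex libraries by minutes after exposure (x axis): Nr3c1, Pgr and Esr2 and the summed level of 5 oligodendrocyte markers, each in CPM on a y axis that starts at 0, with controls in grey, intruder-exposed residents in red and the group mean and SD in black. The means of Nr3c1 and Pgr are lower at 60 than at 30 min in both conditions, with 1 intruder library of Pgr at 11.7 CPM apart from its group, while the mean marker level is higher.

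Beyond the groups, the members varied together from animal to animal. Correlations were taken over deviations of log2 CPM from the group mean, which removes time and condition, and tested by permuting animals within groups (100000 permutations, two-sided, 45 tests of 15 gene pairs in 3 regions, adjusted together). Of these pairs, 9 passed, all with positive r: 6 in amygdala, 2 in hypothalamus and 1 in frontal cortex. Correlations of that size were common among all genes: the share with an r of at least 0.51, the smallest that passed, was 3.98% to 17% in amygdala (highest for Esr1), 1.68% to 9.08% in hypothalamus and 0.218% to 12.5% in frontal cortex, depending on the member.

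The 3 strongest joined the estrogen receptors and aromatase in amygdala. Esr1 and Cyp19a1 had r = 0.9 and rho = 0.89 over 30 libraries (permutation adjusted p = 0.000225 for both). The raw permutation p of 1e-05 is the smallest that 100000 permutations can give. Esr2 and Cyp19a1 had r = 0.88 and rho = 0.83 (permutation adjusted p = 0.000225 for both), and Esr1 and Esr2 r = 0.73 and rho = 0.7 (adjusted p = 0.00105 and 0.00405). The relations held without the 2 samples farthest from the median of the first gene, at 0.92, 0.86 and 0.71, and over deviations that also remove the first library index, at 0.91, 0.88 and 0.73. In controls alone r was 0.89, 0.87 and 0.74, and in intruder-exposed residents 0.91, 0.9 and 0.71. The controls of 30 min illustrate it: replicates 2 and 4, which had 25.3 and 22.6 CPM of Esr1, also had 2.05 and 1.98 of Esr2 and 2.15 and 2.62 of Cyp19a1, while replicates 1, 3 and 5 were low in all 3.

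Tissue markers moved with them in amygdala. Esr1 deviations correlated with the summed level of 6 amygdala markers (Rspo1, Cyp26b1, Moxd1, Ucn3, Tac2 and Nr2f2) at r = 0.9, with the striatal list at -0.89, with the hippocampal list at -0.84 and with the oligodendrocyte list at -0.83 (each rho within 0.02 of r, permutation adjusted p = 0.000425 over 170 tests). Its r with the cortical list was 0.61 and with the endothelial list -0.5 (permutation adjusted p = 0.00489 and 0.0293). For Cyp19a1 the first 4 values were 0.71, -0.7, -0.69 and -0.68, and for Esr2 0.61, -0.54, -0.62 and -0.45, the last with an adjusted p of 0.115. Choroid plexus markers correlated with Esr2 (r = 0.66, rho = 0.63, permutation adjusted p = 0.00745) and with Cyp19a1 (r = 0.52, adjusted p = 0.0263; rho = 0.47, adjusted p = 0.103). With the amygdala, striatum and oligodendrocyte sums regressed out, a step added after the data were seen, r was 0.84 for Esr1 with Cyp19a1, 0.86 for Esr2 with Cyp19a1 and 0.62 for Esr1 with Esr2 (permutation adjusted p = 0.000225, 0.000225 and 0.00825). With the hippocampal sum regressed out as well, the 3 values were again 0.84, 0.86 and 0.62, and each passed. The cortical, endothelial and choroid plexus sums were in neither step. Where in the dissected tissue these transcripts lay was not tested.

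Of the other amygdala pairs, Nr3c1 correlated with Esr1 (r = 0.61, rho = 0.55, permutation adjusted p = 0.0123) and with Cyp19a1 (r = 0.51, rho = 0.45, permutation adjusted p = 0.0425), and Nr3c2 with Pgr (r = 0.64, rho = 0.58, permutation adjusted p = 0.00996). All 3 fell short of the threshold without the 2 farthest samples (0.53, 0.35 and 0.43) and with the markers regressed out (0.23, 0.17 and 0.51). Fewer samples enter the first of these checks by construction, and why the calls were lost was not tested. The rho of Nr3c1 with Cyp19a1 did not pass either (permutation adjusted p = 0.107).

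In hypothalamus 2 of these pairs passed, and the difference from amygdala was not tested. Esr1 and Cyp19a1 had r = 0.64 and rho = 0.63 over 28 libraries, and Esr2 and Cyp19a1 r = 0.64 and rho = 0.66 (permutation adjusted p = 0.00996 and 0.00936 for r). Without the 2 farthest samples r was 0.55, which was no longer called, and 0.69, which was. With the marker sums regressed out r was 0.46 and 0.33 (permutation adjusted p = 0.0901 and 0.216). Markers moved with these genes here too: the amygdala list had r = 0.53 with Esr1, 0.69 with Esr2 and 0.6 with Cyp19a1 (permutation adjusted p = 0.0464, 0.00482 and 0.00697). Esr2 correlated further with the cortical list at 0.59, the oligodendrocyte list at 0.54 and the hypothalamic list at -0.53 (permutation adjusted p = 0.0164, 0.0369 and 0.0157). In frontal cortex Nr3c1 and Pgr had r = 0.68 and rho = 0.66 over 32 libraries (permutation adjusted p = 0.00191 for r), 0.65 without the 2 farthest samples, 0.66 within library index and 0.69 with the markers regressed out.

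**Figure D5:**
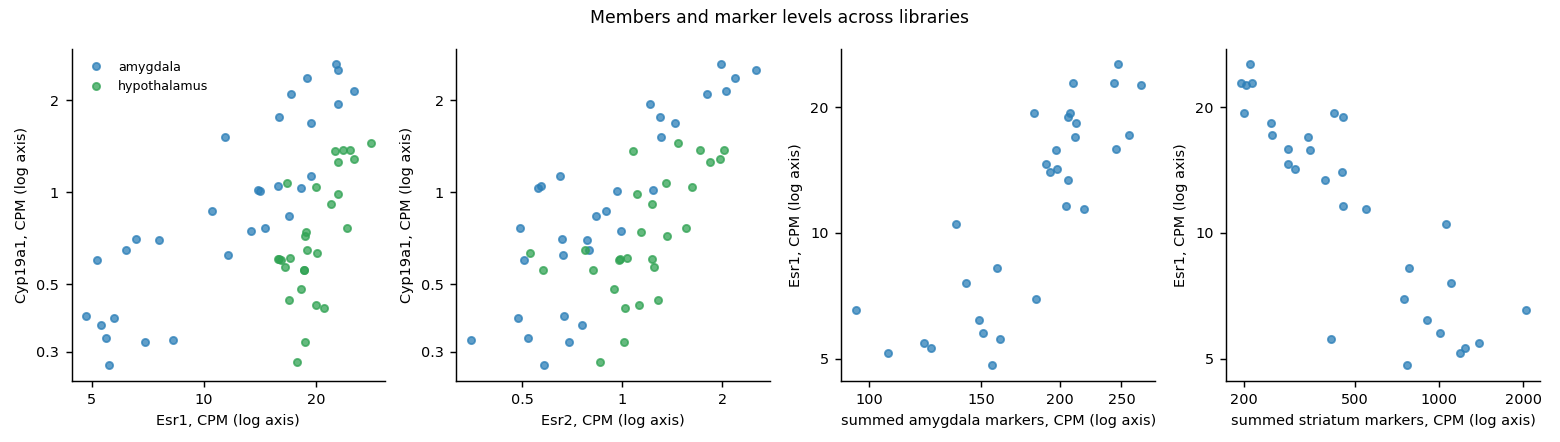
Each point is 1 library on logarithmic axes in CPM: Cyp19a1 against Esr1 and against Esr2 in amygdala (blue) and hypothalamus (green), and amygdala Esr1 against the summed amygdala and striatum markers. Cyp19a1 climbs with both estrogen receptors, and Esr1 climbs with the amygdala markers and falls along the striatal ones.

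No member was shown to follow the animal across regions. Among 18 correlations of a member between 2 regions of the same animals, 0 passed adjustment. The largest were those of Esr2 between amygdala and hypothalamus (r = -0.61, rho = -0.57, permutation adjusted p = 0.0599, 28 animals) and of Nr3c2 between the same regions (r = 0.47, rho = 0.49, permutation adjusted p = 0.0599). The amygdala and hypothalamus values of Esr1 in the same animals had r = -0.11 and those of Cyp19a1 -0.19.

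Genes known to respond to estrogen or to differ by sex in these tissues were set beside the estrogen receptors and aromatase. The list held 11 genes, 10 in the table, and 60 correlations with Esr1, Esr2 and Cyp19a1 in amygdala and hypothalamus were tested. In amygdala 6 of 10 passed with positive r and 2 with negative r for Esr1, 7 and 1 for Esr2, and 6 and 2 for Cyp19a1. Many other genes moved as far: of 18334 genes, 18.9% had an r with Esr1 at least as high as the smallest that passed (0.48) and 19.8% one as far below 0. For Esr2 these shares were 7.65% and 6.39% (from 0.51), and for Cyp19a1 14.3% and 15.3% (from 0.46). The values of Greb1, an early estrogen target, were r = 0.96 with Esr2 (rho = 0.96), 0.93 with Cyp19a1 (rho = 0.9) and 0.79 with Esr1 (rho = 0.78). Prlr, the prolactin receptor, had r = 0.91 with Esr2 (rho = 0.88) and Oxtr, the oxytocin receptor, r = 0.9 with Esr1 (rho = 0.9), each with a permutation adjusted p of 4.62e-05. The negative ones were neuropeptide genes: with Esr1, Penk (enkephalin) had r = -0.85 and rho = -0.84 and Tac1 (substance P) r = -0.75 and rho = -0.74, where the striatal markers had -0.89.

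With the amygdala, striatum and oligodendrocyte sums regressed out, a step added after the data were seen, the values of Penk and Tac1 lay elsewhere. Penk and Esr1 then had r = 0.01 (permutation adjusted p = 0.989), and Tac1 turned positive, with r = 0.49 for Esr1, 0.87 for Esr2 and 0.78 for Cyp19a1 (permutation adjusted p = 0.0206, 6e-05 and 6e-05). Greb1 stayed at 0.94 with Esr2, 0.91 with Cyp19a1 and 0.69 with Esr1, and Prlr at 0.9 with Esr2, while Oxtr with Esr1 was at 0.45 (permutation adjusted p = 0.032). In this form 6 of 10 genes passed with positive r for Esr1, 9 for Esr2 and 8 for Cyp19a1, and 0 with negative r. Of all genes, 6.02%, 4.97% and 7.28% then had an r as high as the smallest that passed (0.45, 0.54 and 0.47), and 4.71%, 5.99% and 6.55% one as far below 0.

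In hypothalamus fewer of these passed: 4 positive for Esr1, 3 positive and 2 negative for Esr2, and 2 positive and 1 negative for Cyp19a1. Esr1 correlated with Greb1 (r = 0.8, rho = 0.75) and Prlr (r = 0.77, rho = 0.74), and Cyp19a1 with Greb1 (r = 0.77, rho = 0.71) and Prlr (r = 0.73, rho = 0.76), with permutation adjusted p of at most 0.0002. Esr2 and Tac1 had r = -0.79 and rho = -0.76 (permutation adjusted p = 0.00018). Of all genes, 1.88% had as high an r with Esr1, 8.01% with Esr2 and 1.73% with Cyp19a1, and 1.12%, 7.01% and 2.04% as far below 0. With the 3 marker sums regressed out, 4 passed for Esr1 and 2 for Cyp19a1, all positive, and 3 for Esr2, all negative, Tac1 at -0.75 among them. In that form 3.64% of all genes had as high an r with Esr1 and 0.3% with Cyp19a1, and 10.4% one as far below 0 with Esr2. A difference between the 2 regions in these correlations was not tested.

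Over all genes kept by the filter, those most like each member were ranked by Pearson's r, as a description without a test. Over the means of the 18 groups, which mainly reflect the 3 regions, Esr1 was most like Rxfp3 (r = 0.995), Zfp423 (0.995) and Rsph4a (0.993). Esr2 was most like Nhs (0.989), Zfp608 (0.988) and Efcc1 (0.988), and Cyp19a1 like March3 (0.99), Cmbl (0.989) and Hpcal1 (0.988). Nr3c2 was most like Fam172a (0.985), Gm10649 (0.985) and Sertm1 (0.984). For Nr3c1 they were Evi5 (0.962) and Nr1d2 (0.95), and for Pgr D130043K22Rik (0.945), Heca (0.942) and Ccdc186 (0.941).

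Over the deviations of the 90 libraries from their group means, which leave only variation between animals and libraries, other genes led. Esr1 was most like Trhr (r = 0.882), Slit1 (0.847) and Plxnc1 (0.842), and Cyp19a1 like Zic2 (0.742), Esr1 itself (0.721) and Gldn (0.717). Esr2 was most like Greb1 (0.715), Slco3a1 (0.693) and Pde11a (0.686). Pgr led with Lmbrd2 (0.914), Klhl11 (0.905) and Bmpr2 (0.901), Nr3c1 with Lnpk (0.731), Zfp148 (0.724) and Cdk7 (0.717), and Nr3c2 with Grm5 (0.74), Tmem106b (0.731) and Slitrk3 (0.725).

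The machinery around the receptors is given by counts, to be read beside the shares of all genes called between regions. Of 11 chaperones of steroid receptors, 8 were higher and 2 lower in hypothalamus than in frontal cortex, 6 higher and 2 lower in amygdala than in frontal cortex, and 8 higher and 2 lower in hypothalamus than in amygdala, with medians of 0.23, 0.09 and 0.07 on the log2 scale beside 0.02, 0.03 and -0.01 over all genes. Fkbp4, a cochaperone of the progesterone and glucocorticoid receptors, was higher in hypothalamus than in frontal cortex by 0.59 ± 0.028. Fkbp5, a glucocorticoid-induced brake on the glucocorticoid receptor, was lower in hypothalamus than in amygdala at -0.57 ± 0.065 and higher in amygdala than in frontal cortex by 0.41 ± 0.062. Of 13 coregulators, 5 were higher and 7 lower, 4 and 7, and 3 and 7 in the same order of comparisons (medians -0.15, -0.07 and -0.1). The corepressor gene Nrip1 was at -0.77 ± 0.042 in hypothalamus against frontal cortex.

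Steroid conversion and transport enzymes numbered 23, of which 21 were in the table and 16 were tested. Against frontal cortex, 6 were higher and 10 lower in hypothalamus and 6 higher and 8 lower in amygdala; 5 were higher and 9 lower in hypothalamus than in amygdala. Cyp46a1, which turns cholesterol into 24-hydroxycholesterol, was at -1.38 ± 0.026 in hypothalamus against frontal cortex, and Cyp11a1, the side-chain cleavage enzyme that starts steroid synthesis, at -3.15 ± 0.111. Hsd11b1, which regenerates active glucocorticoid, was at -1.04 ± 0.053 in amygdala against frontal cortex. Among other receptors of steroids and their orphan relatives, of 10 genes, 5 were higher and 5 lower in hypothalamus than in frontal cortex, among them Pgrmc1 at 1.08 ± 0.038 and Esrra at -1.1 ± 0.045.

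The list of genes that respond to estrogen or differ by sex in hypothalamus and amygdala had larger medians. It was chosen by what is known of those regions, so higher levels there than in frontal cortex follow in part from that choice. Over all genes, 45.1% were called higher in hypothalamus and 41.3% in amygdala than in frontal cortex, and 39.6% in hypothalamus than in amygdala. Of 10 tested, 8 were higher and 1 lower in hypothalamus than in frontal cortex, 10 higher in amygdala than in frontal cortex, and 7 higher and 2 lower in hypothalamus than in amygdala, with medians of 6.03, 3.02 and 2.2. Irs4 was higher in hypothalamus than in frontal cortex by 7.77 ± 0.215 and Sytl4 by 6.82 ± 0.158, both log2. Oxtr was at -1.39 ± 0.094 in hypothalamus against amygdala. Of 12 genes regulated by corticoid receptors, 1 was higher and 8 lower in hypothalamus than in frontal cortex, 3 higher and 7 lower in amygdala than in frontal cortex, and 3 higher and 6 lower in hypothalamus than in amygdala. Per1, a clock gene induced by glucocorticoids, was at -1.05 ± 0.052 in hypothalamus against frontal cortex. Each of these values had an adjusted p under the threshold of 0.05 in edgeR's quasi-likelihood test.

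Intruder exposure called 1 gene of these 6 lists in the 9 comparisons. St13, a cochaperone of Hsp70 and Hsp90, was higher at 120 min in amygdala by 0.21 ± 0.047 (adjusted p = 0.0378), in the comparison whose 93 calls varied from 0 to 413 over the alternatives and from 6 to 218 when single libraries were left out. The first library index nearly parted the conditions there: controls and intruder replicate 6 carried the same index and the remaining intruder libraries another. The log2 medians at 120 min of the chaperones were 0.15 for amygdala, 0.12 for frontal cortex and 0.2 for hypothalamus, beside 0 over all genes in each region, and 10, 9 and 10 of the 11 were above 0. At 30 min they were -0.02, -0.05 and -0.09, and at 60 min -0.04, -0.02 and 0.04. The genes regulated by corticoid receptors had their highest medians at 60 min, 0.09, 0.07 and 0.14, with 10, 10 and 12 of 12 above 0, against -0.03, -0.07 and -0.02 at 30 min and 0.05, 0.06 and 0.02 at 120 min. None of these 12 genes was called, and at 60 min 0% of all genes were called in each region. The share of all genes above 0 was not counted for either list, and neither list was tested as a set. Tissue markers differed at 120 min as well. In amygdala the median log2 fold change of the striatal list was 0.61 and that of the oligodendrocyte list 0.43, with 0 members of either called and with overlapping sums (339 to 1240 CPM against 213 to 1190 in controls, and 2910 to 6210 against 2250 to 4830). In hypothalamus the endothelial sum did not overlap, at 47.9 to 83.8 CPM in intruder-exposed residents and 84.3 to 98.8 in controls. The part of the markers in these values was not tested.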

How the data were processed

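Total RNA from dissected amygdala, frontal cortex and hypothalamus was made into stranded poly(A) libraries and sequenced single-end, per the labels' protocols. The authors deposited counts, whole reads per Ensembl gene, made with CASAVA 1.8.2, TopHat2 2.0.8, HTSeq 0.6.1 and edgeR 3.2.4 in R 3.0.0 on build NCBIM37, per the submitters' processing notes; the annotation and the strand setting of the counting are not given in the sources used here. Symbols came from GENCODE M21 for 32919 of 37991 identifiers. The 5 rows that name no gene stayed out of library sizes and tests. Among them, reads in no feature equalled 8.63% to 14.46% of all counts, those 5 rows included.

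Here counts were fitted per region (6 groups) and over all 90 libraries with the edgeR 4.0.16 quasi-likelihood test (limma 3.58.1, R 4.3.3), TMM scaling and filterByExpr, with Benjamini-Hochberg adjusted p called at 0.05. The procedure was tested on simulated data. Intervals are 95% intervals of the fit. Log2 CPM for correlations used a prior count of 2. Alternatives were DESeq2 1.42.0, other scalings, no filter, library index and replicate blocks, smaller sample sets and each library left out, and, chosen after seeing the data, marker sums as covariates. Same-numbered intruder and control libraries did not pair (41 pairs, r of deviations -0.43 to 0.49, 0 of 9 sets with every pair above 0.1), and libraries of 1 animal share it across regions. P-values measure the spread between libraries.

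The members and lists were chosen with earlier results of these data known. Named genes are the members, the 3 genes most like each, and up to 2 list genes with the smallest adjusted p in either direction per list and comparison. Some genes that this rule names are not reported here. The covariation with markers, with listed genes and between regions was added after seeing the data, and the listed genes named in it were picked after their values were seen. Coordinates are those of GRCm38.p6, not of the build of the counts.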

Additional observations from a re-analysis of the deposited data

Results flagged for a closer look

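In 102 groups of members with 4 to 10 libraries, 11 held a library whose gap to its nearest neighbour was large for the range of its group by Dixon's criterion. Chance gives about 1 in 20 groups, or 5.1 here. The 11 values came from 9 libraries.

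In amygdala controls of 60 min, replicate 5 stood high in Esr2 at 2.19 CPM (the others 0.494 to 0.967) and in Cyp19a1 at 2.36 CPM (the others 0.701 to 1.05). The same library had the highest sum of choroid plexus markers of all amygdala libraries, 1790 CPM. In amygdala controls of 120 min, replicate 3 had 2.52 CPM of Esr2 (the others 0.505 to 0.989) and replicate 1 had 35.6 CPM of Nr3c2 (the others 47.8 to 49). Replicate 4 of the amygdala intruder group of 120 min had 1.44 CPM of Esr2 (the others 0.665 to 0.835).

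In hypothalamus controls of 60 min, replicate 6 had 28.3 CPM of Nr3c2 (the others 24.8 to 25.8) and 1.84 CPM of Esr2 (the others 0.987 to 1.23). In the hypothalamus intruder group of 30 min, a single library had 1.37 CPM of Cyp19a1 (the others 0.428 to 0.599).

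In frontal cortex, replicate 1 of the intruder group of 60 min had 11.7 CPM of Pgr (the others 3 to 4.87), and replicate 5 of the intruder group of 120 min had 6.57 CPM of Pgr (the others 8.58 to 9.24). Replicate 1 of that 120 min group had 0.314 CPM of Cyp19a1 (the others 0 to 0.0195), and also the highest frontal cortex values of Esr1, 5.71 CPM, and of summed hypothalamic markers, 29.6 CPM against a median of 2.28. The part of these markers in the values was not tested.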

How the results depend on the processing

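No group comparison changed direction while called. In the intruder comparisons all 486 counts of members called under other settings were 0, the replicate block included (0 members with it in each region and time, and in the average and the interaction with time). Of 2774 member values there, 2672 kept their sign and side of the threshold and 102 uncalled ones changed sign. Between regions, 5, 6 and 4 members were called, and 5, 6 and 5 with the animal as replicate block. No other region call changed with that block. Of 216 member values between regions under other settings, 6 became called and 0 were lost.

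Over time the counts were less stable. In amygdala of intruder-exposed residents, the 1 member called over all times, at 60 against 30 min and at 120 against 30 min became 0 with RLE scaling, with upper-quartile scaling, without a filter on low counts and with the library index as a block; with marker sums as covariates it was 2 over all times and 2 at 120 against 30 min, and leaving out single libraries gave 0 to 1. In frontal cortex controls the marker covariates gave 1 member over all times in place of 2 and 1 at 60 against 30 min in place of 3. Leaving out single libraries gave 1 to 3 over all times and 0 to 2 at 120 against 60 min, where 1 was called. In frontal cortex of intruder-exposed residents, the marker covariates gave 0 in place of 1 at 120 against 30 min (0 to 1 with libraries left out), and the library index block gave 0 in place of 3 at 120 against 60 min (0 to 3 with libraries left out). The call of Esr2 at 60 against 30 min there was lost under 3 of 5 other settings and that of Nr3c2 at 120 against 60 min under 3 of 6. Of the gene pairs 9 were called, of which 5 passed without the 2 farthest samples and 4 with 3 or 4 marker sums regressed out. With 3 sums another 3 passed (Nr3c2 with Esr1 in amygdala at 0.62, Esr1 with Cyp19a1 in frontal cortex at 0.75, where reads of Cyp19a1 are few, and Nr3c2 with Esr2 in hypothalamus at 0.66) and with 4 sums another 8.

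Correlations with listed genes turned sign with marker sums regressed out, 3 sums and then 4 with hippocampus. In amygdala Tac1 went to 0.49 and 0.47 with Esr1, 0.87 and 0.85 with Esr2 and 0.78 and 0.76 with Cyp19a1. Penk went to 0.01 and 0.07 with Esr1 and, with 4 sums, to 0.1 with Esr2, and Cckar to 0.47 with Cyp19a1 under 3. In hypothalamus Gal went to -0.49 and -0.55 with Esr2, and Penk to -0.07 with Esr2 under 4. Except where fewer samples enter by construction, the cause was not tested.

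Counts over all genes moved by more than 1.5 times in these cases: the intruder effect at 120 min, 93 genes in amygdala (0 to 413) and 34 in hypothalamus (0 to 90). Time in amygdala of intruder-exposed residents called 2225 genes (2 to 3625). In frontal cortex controls it called 6046 genes at 60 against 30 min (3035 to 6201), 755 at 120 against 30 min (441 to 1120) and 2713 at 120 against 60 min (1777 to 3173). In intruder-exposed residents it called 3021 at 120 against 30 min (851 to 3312) and 3914 at 120 against 60 min (0 to 4870). The library index block could not be fitted in frontal cortex at 120 min or for the averages there. Nor could it be fitted there for the steps from 30 min in either condition or for 120 against 60 min in controls. The groups compared in those steps shared no first index, so the member calls in them had no such check. Depth limits Esr2 and Cyp19a1 in frontal cortex, with 3 to 20 and 0 to 18 reads per library.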
